A study of Homo sapiens with 4 samples.

Results

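The regions described here are ERRα ChIP-seq peaks whose summits lay at genes that do not code for protein, away from every coding gene. A member was a peak matched between both ChIP replicates, on chromosomes 1 to 22 and X, with its summit in or within 1 kb of a non-coding gene of the RefSeq GRCh38 gene table and neither in nor within 1 kb of a protein-coding gene. Of 10026 matched peaks, 1264 were members (12.6%, exact 95% binomial interval 11.96 to 13.3%). The other peaks were 1529 within 1 kb of an end of a coding gene, 4608 deeper inside a coding gene and 2625 outside all genes. Among matched peaks, the rule used the position of the summit and no fold enrichment or score. It was set with earlier results of these data known.

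The series holds 2 ERRα ChIP libraries, made from separate cultures of MDA-MB-231 cells, and 2 input libraries of the same cells. MDA-MB-231 is an established human breast cancer cell line without oestrogen receptor α. The labels give no treatment or modification for any group; all cells grew in medium with serum and were fixed with 1% formaldehyde; the ChIP libraries came from chromatin of 2500000 cells precipitated with 5 µg of an antibody to ERRα, and the input libraries were not precipitated. The labels give read numbers without an exponent sign, read here as 29000000 for ERRα and 10000000 for input, and no read count per peak was used. All values come from 1 cell line and 1 antibody, both ChIP libraries were called against the same inputs, and no sample lacked ERRα, so that no comparison between conditions was made and no test over samples was possible.

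ERRα, encoded by ESRRA, is an orphan nuclear receptor that binds DNA without a known natural hormone and is known for driving genes of mitochondrial energy metabolism. It binds as a monomer or dimer to the ERR response element, an extended form of the half-site shared by many nuclear receptors. Non-coding genes include long non-coding RNAs (lncRNAs), pseudogenes, which are mostly inactive copies of coding genes, and genes of short structured RNAs such as the small nuclear RNAs (snRNAs) of the spliceosome, the small nucleolar RNAs (snoRNAs) that guide rRNA processing, tRNAs and microRNAs. A summit at a gene is a position, and does not say which gene, if any, the bound protein acts on.

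The start windows of lncRNAs show the DNA under the summits of a small part of the 1264 members. A start window is the stretch from 250 bases before to 50 bases after an annotated RNA start, taken from RefSeq on GRCh38.p14, and 31 lncRNA windows held the summit of a member. The peaks reach beyond these windows, and some summits lie near the edge of one. Motifs outside the windows were not searched for, so a window without a match does not mean a peak without one. The 7 windows with the highest fold enrichment are printed because they hold both kinds of match and none: capitals mark the ERR response element TNAAGGTCA, where present, and otherwise the half-site AGGTCA, each on either strand (TGACCTTNA and TGACCT when read on the other). Every window reads 5′ to 3′ along the strand of its lncRNA. They are LINC00938 at chr12:45727872-45728171 on the minus strand, CEACAM16-AS1 at chr19:44718601-44718900 on the minus strand, LINC01186 at chrX:46327625-46327924 on the minus strand, ARHGEF2-AS1 at chr1:155991124-155991423 on the plus strand, LINC00662 at chr19:27793891-27794190 on the minus strand, LINC01812 at chr2:67825513-67825812 on the minus strand and DANT2 at chrX:115969062-115969361 on the minus strand.
LINC00938: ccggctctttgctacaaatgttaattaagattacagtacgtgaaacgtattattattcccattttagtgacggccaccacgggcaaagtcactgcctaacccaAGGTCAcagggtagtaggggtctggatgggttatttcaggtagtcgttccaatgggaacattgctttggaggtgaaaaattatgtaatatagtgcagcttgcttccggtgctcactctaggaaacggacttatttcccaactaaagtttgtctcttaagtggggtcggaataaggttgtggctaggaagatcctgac
CEACAM16-AS1: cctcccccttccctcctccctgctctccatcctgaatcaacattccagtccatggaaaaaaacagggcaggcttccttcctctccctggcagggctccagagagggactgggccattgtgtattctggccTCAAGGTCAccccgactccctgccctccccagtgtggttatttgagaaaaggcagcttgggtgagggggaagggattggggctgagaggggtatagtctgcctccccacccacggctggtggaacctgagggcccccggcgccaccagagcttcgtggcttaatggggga
LINC01186: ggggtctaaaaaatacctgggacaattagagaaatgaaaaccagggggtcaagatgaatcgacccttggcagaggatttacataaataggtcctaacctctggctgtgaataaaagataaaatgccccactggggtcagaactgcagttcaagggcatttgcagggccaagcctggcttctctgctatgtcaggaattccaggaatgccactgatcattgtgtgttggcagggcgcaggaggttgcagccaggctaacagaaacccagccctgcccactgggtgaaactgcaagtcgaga
ARHGEF2-AS1: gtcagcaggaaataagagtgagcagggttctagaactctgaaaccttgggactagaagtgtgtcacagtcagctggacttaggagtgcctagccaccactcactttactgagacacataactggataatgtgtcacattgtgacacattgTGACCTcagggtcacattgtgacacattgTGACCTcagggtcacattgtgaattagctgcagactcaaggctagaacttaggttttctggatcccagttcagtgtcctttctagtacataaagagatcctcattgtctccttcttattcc
LINC00662: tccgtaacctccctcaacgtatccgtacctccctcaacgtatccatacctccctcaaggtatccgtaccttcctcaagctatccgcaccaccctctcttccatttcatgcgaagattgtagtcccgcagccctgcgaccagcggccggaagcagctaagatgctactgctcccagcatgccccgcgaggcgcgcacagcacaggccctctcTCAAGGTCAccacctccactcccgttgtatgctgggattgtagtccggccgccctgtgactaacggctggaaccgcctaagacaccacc
LINC01812: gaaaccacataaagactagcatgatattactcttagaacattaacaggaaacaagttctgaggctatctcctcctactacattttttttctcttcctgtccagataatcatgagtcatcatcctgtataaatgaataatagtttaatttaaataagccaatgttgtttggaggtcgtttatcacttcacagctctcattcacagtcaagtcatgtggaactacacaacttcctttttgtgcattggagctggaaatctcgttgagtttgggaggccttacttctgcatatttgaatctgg
DANT2: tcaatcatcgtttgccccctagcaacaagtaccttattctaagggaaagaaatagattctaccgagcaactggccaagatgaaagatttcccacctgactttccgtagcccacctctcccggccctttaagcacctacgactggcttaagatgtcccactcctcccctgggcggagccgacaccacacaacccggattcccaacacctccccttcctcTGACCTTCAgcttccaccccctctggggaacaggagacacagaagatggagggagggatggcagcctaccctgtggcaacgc

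The capitals in CEACAM16-AS1 and LINC00662 spell the same 9 bases, and those in DANT2 the reverse complement of the same word with another base at its free position. LINC00938 holds a single half-site, ARHGEF2-AS1 holds 2 copies in one orientation within a short repeat, and LINC01186 and LINC01812 hold neither. The other 5 windows with an ERR response element are shown by the match and 10 bases on each side, since the match is what they share.
LOC124903008: tcggattggcTCAAGGTCAcatatagtca
LINC00189: gctctcttttTGACCTTCAggcaccctct
LINC02552: caagacatccTGACCTTCAagggagggag
LOC124901086: tggcaggaaaTCAAGGTCAaggccctggt
LOC105373871: tgtcttgataTGACCTTGAtatgttcctg

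The ERR response element stood in 8 of the 31 lncRNA start windows under a member summit (25.8%, interval 11.9 to 44.6%), against 185 of all 12829 lncRNA start windows (1.44%) and 0.955% of all 34961 start windows in the table. The half-site alone or within the longer element stood in 17 of the 31 windows (54.8%, interval 36.03 to 72.7%), against 17.1% of all lncRNA windows. Both intervals lay above the share over all lncRNA windows; the differences were not tested. The AP-1 motif TGANTCA, whose matches may share bases with those words, stood in 4 of the 31 (12.9%, interval 3.63 to 29.8%), against 10.3% of all lncRNA windows. Over coding genes, 26 of 374 start windows with a matched summit held the ERR response element (6.95%, interval 4.59 to 10.0%), against 0.673% of all 22132 coding windows, and 145 held the half-site (38.8%, interval 33.8 to 43.9%), against 11.9%. The half-site interval of the coding windows overlapped that of the 31 lncRNA windows. Median GC content was 53.0% in the 31 windows, against 50.0% in all lncRNA windows and 64.7% in the coding windows with a summit, and its part in the shares was not tested.

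The matches lay close to the summits. The centre of the ERR response element was a median of 22.5 bp from the summit, with a range of 1 to 75 bp, and lay within 50 bp in 7 of the 8 windows. The nearest half-site lay within 50 bp of the summit in 15 of 17 windows. In LINC00662 the element lay 1 bp from the summit, and the peak had a fold enrichment of 20.2 and 20.4 over input in replicates 1 and 2. In CEACAM16-AS1, an RNA on the strand opposite the gene of the cell adhesion family member CEACAM16, it lay 34 bp from the summit, and the folds were 35.9 and 38.0. DANT2 had folds of 19.4 and 18.5 with the element 22 bp away. The strongest peak over a start window, at LINC00938 on chromosome 12, 1623 bp from ARID2, the gene of a chromatin remodelling subunit, had folds of 71.7 and 59.5 and only the half-site, 17.5 bp from the summit. Strong peaks without an ERR response element or half-site were those of LINC01186, with 35.01 and 36.7, and LINC01812, with 19.4 and 20.5. The window of LINC01812 held an AP-1 match, and that of LINC01186 did not. Median fold was 10.4 over the 8 windows with the ERR response element, 10.1 over the 9 with a half-site alone and 7.96 over the 14 with neither, with ranges that overlapped.

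**Figure D1:**
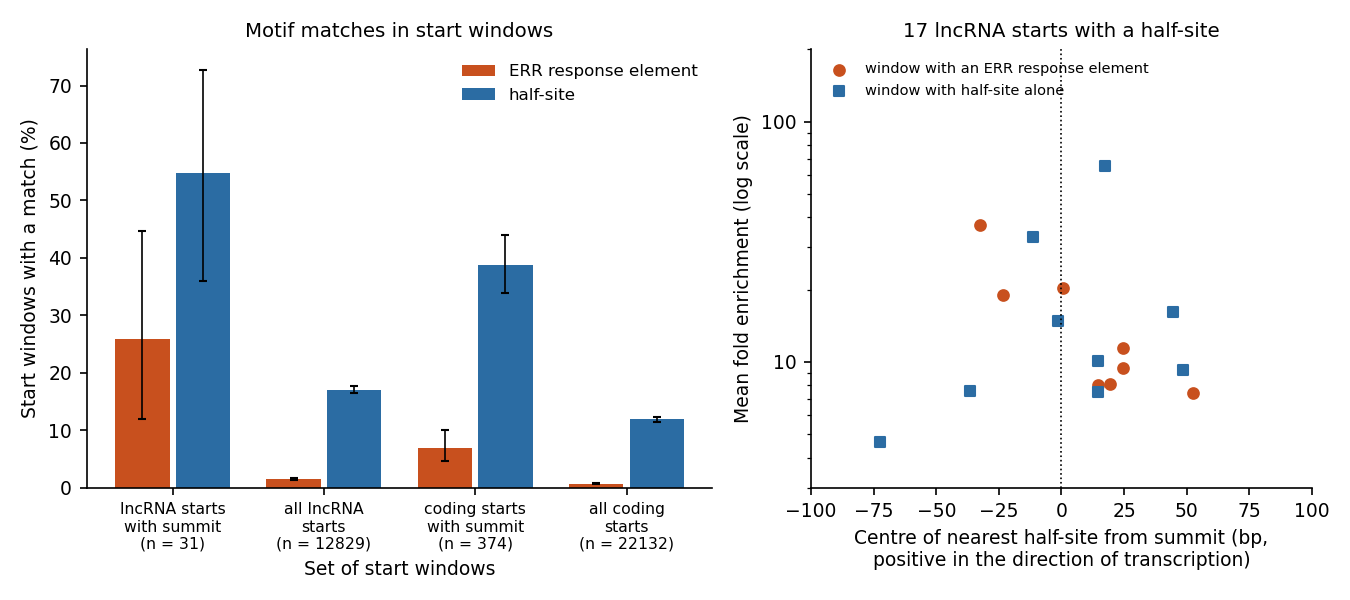
Left, share of start windows (%) with an ERR response element or a half-site, with exact 95% binomial intervals, for lncRNA starts under a member summit, all lncRNA starts, coding starts under a matched summit and all coding starts. Right, distance (bp) of the nearest half-site from the summit against the mean fold of both replicates (log scale) for the 17 lncRNA starts with one; 15 of the 17 lie within 50 bp of the summit.

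The median member was about as strong as the median of the other matched peaks. Fold enrichment, the authors' ratio of ChIP to local input signal at a summit, had a median of 8.65 in replicate 1 and 8.46 in replicate 2 over members, against 8.65 and 8.39 over all other matched peaks. Peaks with an irreproducible discovery rate (IDR, the expected share of matches by rank that do not repeat between replicates) of at most 0.05 are called reproducible here. By that rule 656 of the 1264 members were reproducible (51.9%, interval 49.1 to 54.7%), where 50.4% of all matched peaks were and 50.2% (interval 49.2 to 51.3%) of all other matched peaks. At an IDR of 0.01 the members' share was 38.8%, against 38.7% of all matched peaks. A mean fold of at least 20 was reached by 158 members (12.5%), beside 12.1% of all matched peaks. When all matched peaks were ranked by mean fold and divided into 5 equal groups, members made up 11.8%, 12.8%, 13.3%, 12.02% and 13.2% from the weakest group to the strongest. These shares lie near the background.

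The replicates gave similar folds: they were within 2-fold of each other in 1257 of the 1264 members, and Spearman's rho between them was 0.859, a description over peaks of the same 2 libraries and not over replicates. Replicate 1 was the higher in 662 members. Binomial intervals here cover counting error only, and peaks, being counted in 2 libraries, are not independent samples of the condition.

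**Figure D2:**
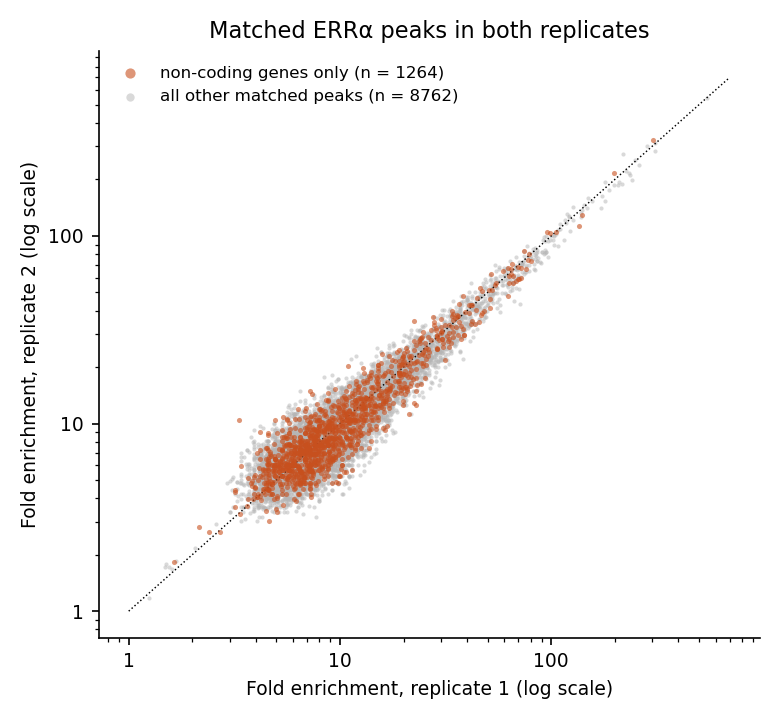
Fold enrichment over input in replicate 1 (x axis) and replicate 2 (y axis), both on log scales, for the 1264 members and the 8762 other matched peaks; the dotted line marks equal values. Members run along the whole diagonal among the other peaks, up to the SPRY4-AS1 summit at 303 and 325.

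By gene type, lncRNA genes held most members and snRNA genes held a small group of strong ones. A summit in reach of genes of several types was counted under each, and 153 members lay at 2 or more non-coding genes. At lncRNA genes lay 1093 members (86.5%), of which 51.8% were reproducible, with a median mean fold of 8.49. At pseudogenes lay 141, 46.1% reproducible (interval 37.7 to 54.7%), with a median of 8.14. At snRNA genes lay only 37 members, but 34 of them were reproducible (91.9%, interval 78.1 to 98.3%), and their median was 19.6. The 14 members at tRNA genes had a median of 8.32, the 9 at microRNA genes 10.8, and the 4 at snoRNA genes 43.6. All 3 members at rRNA genes were weak, with mean folds of 2.48 to 2.67, and none was reproducible.

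Counted by genes, 1187 of 27583 non-coding genes that a member could reach held one (4.30%), and 671 (2.43%) held a reproducible one. Of reachable lncRNA genes 963 of 13891 held a member (6.93%, interval 6.52 to 7.37%), of pseudogenes 138 of 11397 (1.21%), and of snRNA genes 37 of 116 (31.9%, interval 23.6 to 41.2%), although the median reachable snRNA gene is 121 bp long and the median reachable lncRNA gene 10359 bp. Of tRNA genes 18 of 391 held a member (4.60%), of microRNA genes 9 of 698 (1.29%) and of snoRNA genes 5 of 577 (0.867%). The differences between types were not tested.

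**Figure D3:**
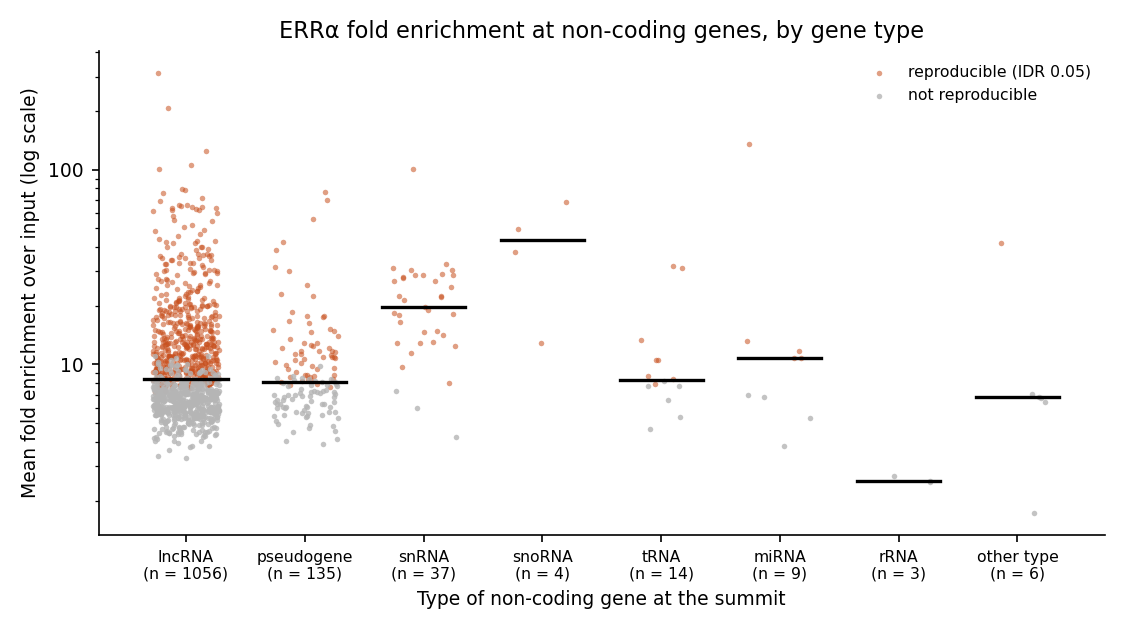
Mean fold enrichment over input of both replicates (log scale) for each member, by the type of non-coding gene at its summit, with each member drawn once, under the small RNA type where it has one, so that the numbers of members under lncRNA, pseudogene and other type are lower than in the text; black lines are medians, and colour marks reproducible peaks. The snRNA and snoRNA members sit above the bulk of the lncRNA and pseudogene members, and the rRNA members below it.

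Most snRNA members lay at genes of the spliceosome's RNAs. U1 and U2 RNAs recognise sequences at or within introns, and U5 joins them as splicing proceeds. The genes of these RNAs are transcribed by RNA polymerase II, whereas U6 genes are transcribed by RNA polymerase III. All 4 reachable RNU1 genes held a reproducible member, with folds in replicates 1 and 2 of 28.5 and 32.2 at RNU1-1, 22.5 and 27.4 at RNU1-2, 21.7 and 22.96 at RNU1-3 and 18.6 and 24.2 at RNU1-4. Replicate 2 was the higher at each of the 4. Of the variant U1 genes (RNVU1), 12 of 17 held a member and 10 a reproducible one, the strongest being RNVU1-14 with 37.3 and 28.2 and the weakest RNVU1-3 with 4.95 and 3.52. All 4 reachable U5 genes held a reproducible member: RNU5A-1 with 30.6 and 25.5, RNU5E-1 with 28.9 and 24.98, RNU5B-1 with 15.8 and 23.4 and RNU5D-1 with 12.6 and 13.3. Of 5 U6 genes only RNU6-7 held a member, with 6.73 and 5.18, which was not reproducible and lay 413 bp from the gene. RNU6-2 had a matched summit of mean fold 19.7, and RN7SK, another RNA polymerase III gene, one of 7.502; both lay too near a coding gene to be members. None of the 28 SNAR genes, which are short RNAs of another family that the table also types as snRNA, held a member.

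On chromosome 17, 14 snRNA members lay within 134 kb, all reproducible. RNU2-1, the U2 gene of 188 bp, had folds of 10.5 and 12.5, and the other 13 lay at genes of 189 to 192 bp that the table types as snRNA and names only by LOC numbers. Folds of these 14 members had medians of 22.6 in replicate 1 and 25.6 in replicate 2. The strongest, at LOC124904138 (chr17:43250501-43252278), had 95.5 and 105, far above the next, LOC124904135, with 27.8 and 34.6. A further U2-related gene on chromosome 2, RNU2-63P, had 8.93 and 10.5.

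Members at snRNA genes sat at or beside these short genes and were broad. The summit lay a median of 39 bp from an end of the snRNA gene, within 150 bp in 36 of 37 cases, and outside the gene in 30. Over all members within 1 kb of an end of a non-coding gene, 27.5% lay within 150 bp. The median reachable snRNA gene is 121 bp long, so a summit within 150 bp of an end is one at or beside the gene. The lncRNA genes, where most members lay, are longer (median reachable 10359 bp), so these shares do not show whether ends are preferred. Median peak width was 1009 bp at snRNA genes, against 637.5 bp over all members. Because U1, U2 and tRNA genes exist in near-identical copies, a read may be placed at the wrong copy, and how reads with several placements were treated is not given in the sources used here; single values per copy are therefore uncertain. Matched summits lay at 47 of all 154 snRNA genes; the 10 that are not members, RNU12 and RNU4-2 among them, lay within 1 kb of a coding gene as well. Without the 37 snRNA members, 50.7% of the remaining 1227 members were reproducible and their median fold was 8.38.

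**Figure D4:**
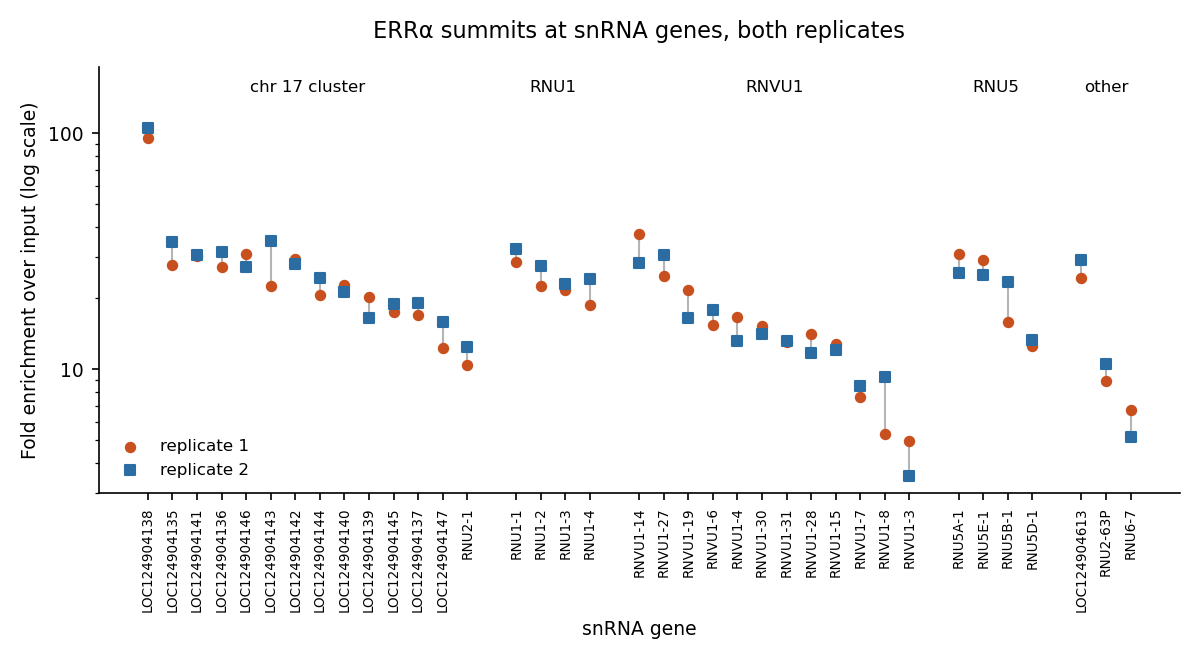
Fold enrichment over input (log scale) in replicate 1 and replicate 2 for the 37 snRNA genes with a member, grouped as the chromosome 17 cluster, RNU1, variant U1 (RNVU1), RNU5 and other genes. LOC124904138 stands alone near 100, and RNVU1-3 and RNU6-7 are among the lowest.

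The snoRNA members were led by the U3 genes, whose RNA takes part in cutting the rRNA precursor. SNORD3A (chr17:19187710-19190516) had folds of 65.6 and 70.7, SNORD3B-2 46.3 and 52.5, and SNORD3D 41.9 and 33.8. All 3 are near-identical copies on chromosome 17, so that the limit on placing reads holds for them as well. The remaining snoRNA member lay 361 bp from SNHG25, a host gene of snoRNAs, with 14.3 and 11.5. All 4 were reproducible.

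TERC, the RNA that serves as template in telomerase, had folds of 41.8 and 42.7 at a reproducible summit 492 bp outside the gene on chromosome 3. Of 14 members at tRNA genes 8 were reproducible. The strongest pair lay 790 bp from TRL-CAA3-1, a leucine tRNA gene, with 27.4 and 36.8, and at a cluster of tRNA genes and LINC00324 on chromosome 17, with 30.2 and 32.6. Next came a summit 418 bp from TRN-GTT2-3, with 14.4 and 12.3. The 12 members other than the strongest pair had mean folds of 4.63 to 13.4, around the median of all members, and 6 of them were reproducible. Of the 391 reachable tRNA genes 11 held a reproducible member (2.81%), near the 2.43% of all reachable non-coding genes. The members at rRNA genes lay in the 45S repeats on chromosome 21 and had folds of 2.15 to 2.70 in replicate 1 and 2.63 to 2.81 in replicate 2.

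Of 9 members at microRNA genes 5 were reproducible. The strongest lay inside LOC107987132 and within 1 kb of MIR3960 on chromosome 9, with folds of 140 and 129. Its summit was 138 bp from the nearest end of a non-coding gene and 1200 bp from CDK9, a kinase of transcription elongation. It cannot be assigned to the microRNA gene. A summit in the host gene of MIR3677, 892 bp from the microRNA gene itself, had 13.2 and 13.3. One 553 bp from MIR12118 had 12.3 and 11.2. At MIR5087 the hairpin ended 44 bp from the summit, and the folds were 10.4 and 11.2. The same summit also lay at RNVU1-21, a pseudogene with a variant U1 name, and at the lncRNA genes LOC124904404 and LOC124904402. An end of one of these other genes was closer, at 14 bp, so the peak cannot be assigned to the microRNA gene. The limit on placing reads among U1 copies may hold here as well. The mature RNA is printed with its seed, bases 2 to 8, in capitals.
hsa-miR-5087: gGGUUUGUagcuuugcuggcaug

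Long non-coding RNA genes held the strongest single members. SPRY4-AS1, an RNA on the strand opposite SPRY4, the gene of an inhibitor of receptor tyrosine kinase signalling, had a member at chr5:142361594-142364683 with folds of 303 in replicate 1 and 325 in replicate 2, which ranked 2 among all 10026 matched peaks by mean fold (314 ± 15.97, SD, n = 2). Its summit lay 37.9 kb from SPRY4. LOC124901241, on chromosome 6 and 5.46 kb from WRNIP1, had 199 and 217. LOC105375909, on chromosome 8 and 397 kb from its nearest coding gene PEX2, had 135 and 114. LOC105378383, 1300 bp from ZCCHC24, had 106 and 105, and MIR4713HG, the host gene of a microRNA, 98.3 and 103 at a summit 15.97 kb from TNFAIP8L3. These members were named because their mean folds are the highest, so their distance from the members' median of 8.47 follows from that choice.

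The remaining members among the 20 strongest had mean folds of 64.3 to 100. LINC01588 had 78.6 and 80.1, LOC107984934 74.6 and 83.0, and LINC01255 78.0 and 74.5. LOC105373208, 74.3 kb from IRF2BP2, the gene of a transcriptional corepressor, had 75.7 and 66.9, and SLC44A3-AS1 with the pseudogene PGBD4P7 had 71.8 and 67.7. The strongest pseudogene member lay 856 bp from ATP6V0CP3, a copy of a proton pump subunit gene, with 80.2 and 73.5. The next pseudogene members were PGBD4P7 and RNU1-27P, a U1 pseudogene inside LOC105370449, with 54.8 and 56.4. LOC100128988 and LOC105372621 on chromosome 20, 23.6 kb from the topoisomerase gene TOP1, shared a summit with 69.5 and 68.6, LINC01979 and LINC01978 shared one with 64.4 and 66.8, LOC124902625 had 62.7 and 67.4, and LINC00504 and LINC01800 had 70.4 and 58.8, and 69.7 and 58.8.

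Several lncRNA genes held many summits. Of 1187 genes with a member, 1017 held 1, 131 held 2 and 39 held 3 or more. PVT1, the long gene next to the oncogene MYC on chromosome 8, held 11, more than any other. Its 2 strongest had folds of 36.2 and 29.6 and of 32.7 and 25.6 in replicates 1 and 2, 114 kb apart, and both were reproducible; the other 9 had mean folds of 4.76 to 10.8. SPRY4-AS1 held 7, of which 4 were reproducible. Apart from the strongest, they were a summit 36.3 kb towards SPRY4 with 30.5 and 28.2, one 20.4 kb towards it with 10.4 and 14.1, one 83.9 kb away on the other side with 9.45 and 7.82, and 3 that were not reproducible, with mean folds of 5.94 to 8.05. LINC02456, on chromosome 12, also held 7, led by 39.0 and 39.2 and by 19.02 and 18.7. LOC105370777 held 7 that were weaker, the highest with 13.3 and 11.3. LINC02964, on chromosome 8 with TRIB1 as the nearest coding gene, held 5, of which 3 were reproducible, the highest with 51.5 and 41.4. Also with 5 each were LOC105376360 on chromosome 10, all reproducible and the highest with 32.3 and 27.6, SLC38A4-AS1 with 3 reproducible and 33.5 and 26.9 at the highest, and LOC105369844 with 2 reproducible and 11.7 and 14.5. These are long genes of 139 to 556 kb, and a long gene offers more room for summits.

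**Figure D5:**
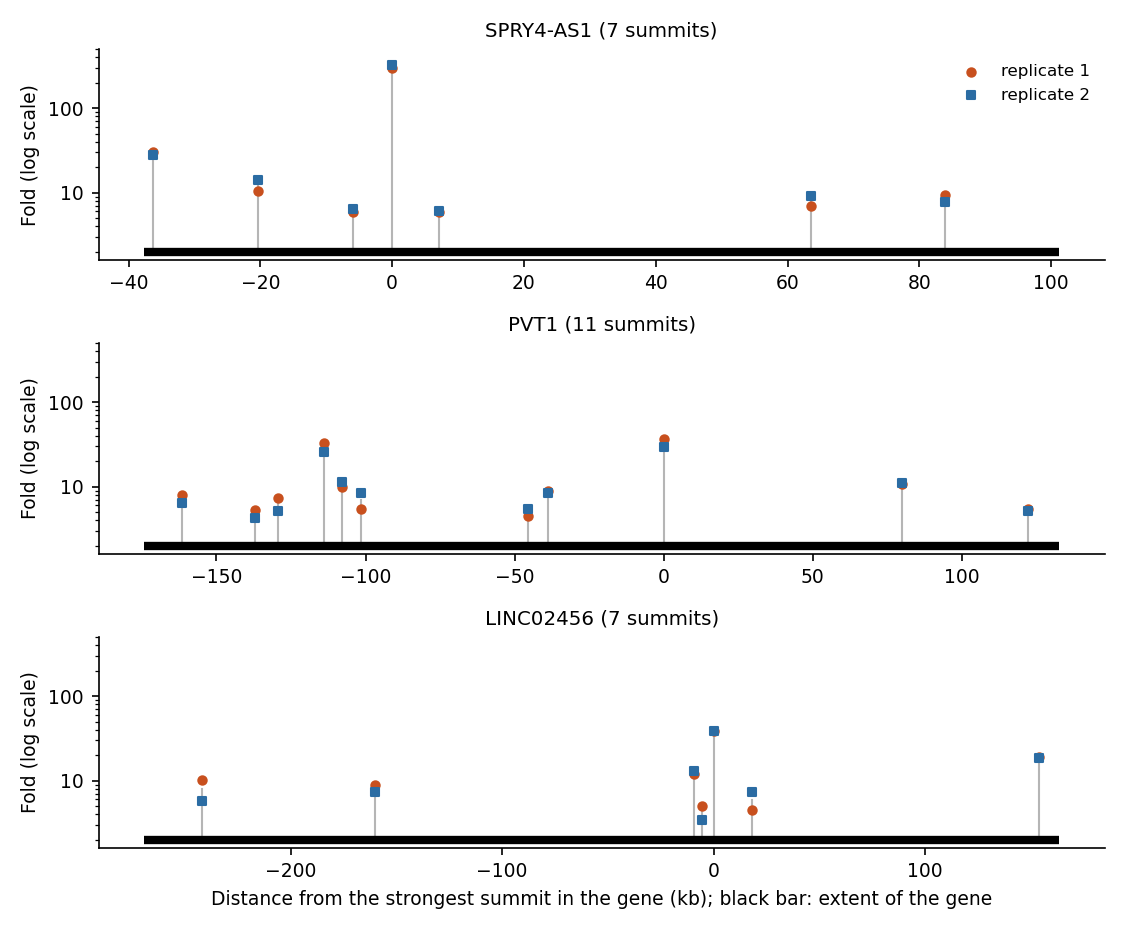
Fold enrichment over input (log scale) in replicate 1 and replicate 2 of every member in SPRY4-AS1, PVT1 and LINC02456, by distance (kb) from the strongest summit of the gene; the black bar is the extent of the gene. A single summit stands out in SPRY4-AS1 at 303 and 325, 2 of near-equal height stand out in PVT1, and the highest in LINC02456 has 39.0 and 39.2.

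Along the genes, most members lay deep inside. Of the 1264, 846 (66.9%) were inside a non-coding gene and over 1 kb from every end, 242 (19.1%) inside and within 1 kb of an end, and 176 (13.9%) outside within 1 kb. Of the 418 within 1 kb of an end, 57.9% were reproducible (interval 53.0 to 62.7%), with a median mean fold of 9.23, against 48.9% (interval 45.5 to 52.4%) and 8.21 for those deep inside. The summits outside a gene had 60.8% and 9.93. All 37 snRNA members, 34 of them reproducible, were among the 418. Without snRNA members, 147 of the 176 summits outside a gene were left. The shares reproducible near an end or outside a gene were not computed without them. For 728 members the promoter table gave the start of a lncRNA at the summit. Of these, 144 (19.8%) lay within 1 kb of a start, with 62.5% reproducible (interval 54.1 to 70.4%) and a median fold of 10.0, and 528 lay near neither end, with 50.0% (interval 45.7 to 54.3%) and 8.35. The 56 near the other end alone had 67.9% (interval 54.0 to 79.7%) and 11.1, which overlaps the interval at the starts. Of the members near a start, 65 lay before it and 79 after it.

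Longer lncRNA genes held a member more often. A member lay at 33 of 1532 reachable lncRNA genes of up to 2 kb (2.15%), 214 of 5280 of 2 to 10 kb (4.05%), 351 of 5031 of 10 to 50 kb (6.98%) and 365 of 2048 over 50 kb (17.8%, interval 16.2 to 19.5%). By the style of name, 644 members lay at lncRNA genes known only by a LOC number (52.3% reproducible), 237 at LINC genes (46.4%), 129 at antisense genes ending in AS (58.9%, interval 49.9 to 67.5%), 31 at divergent transcripts ending in DT (58.1%) and 16 at host genes (50.0%). These intervals overlapped in part, and no difference between name styles was tested.

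Well-studied lncRNAs were next counted from lists drawn up with earlier results of these data known. Of 50 well-studied lncRNAs, 39 were reachable, 13 held a member (33.3%) and 6 a reproducible one (15.4%). The shares were 6.93% and 3.95% of all reachable lncRNA genes, and 4.30% and 2.43% of all reachable non-coding genes. The median reachable length was 12.6 kb on the list, and lncRNA genes of 10 to 50 kb had 6.98% and 3.74%. Lengths varied among the genes with a member: PVT1 spans 307 kb and SPRY4-AS1 139 kb, but CCAT1 11887 bp and TERC 451 bp. Of lncRNA genes over 50 kb, 17.8% held a member and 10.3% a reproducible one. No background matched to the length of each gene was computed. The differences were not tested. The 6 with a reproducible member were SPRY4-AS1, TERC, PVT1, CCAT1, LINC-PINT and LINC00472. The gene table gives TERC, and RN7SL2 on the same list, a type other than lncRNA. CCAT1, which lies upstream of MYC, had folds of 25.1 and 23.2 and of 11.8 and 15.1 at 2 summits, LINC-PINT 15.2 and 12.1 at its strongest, and LINC00472 13.2 and 10.4. MALAT1, an abundant nuclear RNA of chromosome 11, had a summit 12 bp inside its start with only 6.43 and 5.81, which was not reproducible, and MIAT, CYTOR, SOX2-OT, BCAR4, DLEU2 and RN7SL2 likewise held no reproducible member.

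Of 30 host genes of microRNAs, 25 were reachable, 7 held a member (28%) and 4 a reproducible one (16%). The shares were 6.93% and 3.95% of all reachable lncRNA genes, and 4.30% and 2.43% of all reachable non-coding genes. The median reachable length on this list was 29.7 kb, and lncRNA genes of 10 to 50 kb had 6.98% and 3.74%. Lengths varied here too, from 394543 bp at MIR100HG and 232364 bp at LINC-PINT to 4707 bp at MIR22HG. Of lncRNA genes over 50 kb, 17.8% held a member and 10.3% a reproducible one. The 4 with a reproducible member were MIR100HG with 15.2 and 19.1 at its strongest, LINC-PINT, MIRLET7A1HG with 11.1 and 13.8 at a summit 530 bp inside its start, and MIR22HG, host of a microRNA of the same number, with 11.7 and 12.2. MIR137HG with 8.19 and 5.83, MIR194-2HG with 4.87 and 6.73 and DLEU2 held members that were not reproducible. Of 33 host genes of snoRNAs, 28 were reachable, with a median length of 6.27 kb, and 2 held a member, SNHG25 and SNHG33. This share of 7.14% lay near the 6.93% of all reachable lncRNA genes. SNHG33 had folds of 10.7 and 11.4 at a summit 309 bp before its start, and both genes' members were reproducible.

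Per length of genome, the density of summits at non-coding genes lay between that at coding genes and that outside all genes. The sequence where a summit would be a member covers 442 Mb, 14.6% of chromosomes 1 to 22 and X, and held 2.86 matched summits per Mb, against 4.75 in or near coding genes and 2.03 outside all genes. Reproducible summits gave 1.48 per Mb, against 2.39 and 1.01. By chromosome, members made up 20.3% of matched peaks on chromosome 8 (88 of 434, interval 16.6 to 24.4%), 20.97% on chromosome 21 (13 of 62, interval 11.7 to 33.2%), 18.7% on chromosome 13 (42 of 225, interval 13.8 to 24.4%) and 4.66% on chromosome 19 (23 of 494, interval 2.97 to 6.90%). These are the highest shares and the lowest, beside 12.6% over all chromosomes used, which the chromosome 21 interval includes. How much of each chromosome could hold a member was not computed. The median member lay 40.0 kb from the nearest coding gene, and 194 (15.3%) lay more than 200 kb away. The 147 members at 1 to 5 kb from a coding gene had a median fold of 8.83, and the 194 farthest had 8.08. The next matched summit lay within 10 kb of 269 members (21.3%), against 21.8% of all other matched peaks.

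The values nearest the limits of the rule are given as a description. Just inside 1 kb of a non-coding gene were LOC124902736 at 994 bp with 7.82 and 8.39, NOL4L-DT at 955 bp with 8.85 and 9.45 and FAM201B at 910 bp with 22.1 and 17.3. Just outside it were the peaks near LOC130494219 at 1001 bp with 7.46 and 7.16, LINC00862 at 1015 bp with 5.33 and 7.65 and MYH9-DT at 1017 bp with 7.61 and 4.83. Just far enough from a coding gene were LOC124902291 at 1004 bp with 11.8 and 13.3, ABHD16B-AS1 at 1007 bp with 10.7 and 13.2 and MIR22HG at 1039 bp. Just too near one were LOC124902526 at 995 bp with 10.2 and 10.1, LOC102724965 at 974 bp with 5.41 and 4.23 and LOC105369968 at 970 bp with 39.3 and 32.1.

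In the lists of single replicates, such positions made up a similar share. In replicate 1, 1784 of 14032 peaks (12.7%, interval 12.2 to 13.3%) lay at non-coding genes only, and 1617 of 12603 in replicate 2 (12.8%, interval 12.3 to 13.4%). Of these, 508 in replicate 1 and 343 in replicate 2 were in no matched peak, with median folds of 5.32 and 5.24.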

How the data were processed

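ERRα ChIP-seq of MDA-MB-231 cells was deposited as a peak list for each of 2 ChIP replicates and a list of peaks matched between them, each called against 2 inputs, per their names; the inputs have no values of their own in them. The submitters' processing notes name hg38, MACS2 2.2.6, Bowtie2 2.3.5, deepTools, Picard, Trim Galore 0.6.5 and SAMtools, with no settings. The deposited columns are the fold enrichment of each peak (a ratio of ChIP to local input signal, made by the authors), its −log10 p and −log10 q, and a score. In the matched list the deposited score grows as the IDR falls, with 540 for an IDR of 0.05 and 830 for 0.01; its lowest value, 154, shows that the list was not filtered on IDR. Read depth per peak is unknown, so no interval covers it.

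Of 10331 matched rows, 305 on chromosome Y or other contigs were not used. Where a matched interval joined several peaks of a replicate (11 members in replicate 1 and 8 in replicate 2, sums equal within 0.001), the highest single fold replaced the sum. Summits were placed against 59098 genes (39124 non-coding) of the RefSeq table of GRCh38.p14, the build of hg38; the table has no strand, so starts came from the RefSeq promoter table. A non-coding gene was reachable if a member summit could lie at it. Python 3.11.15, pandas 2.3.3, numpy 2.4.6, SciPy 1.17.1 and matplotlib 3.10.9 were used. Placement and motif search were checked on simulated data. Intervals are exact Clopper-Pearson intervals at 95% and were not part of that check. The rule for naming took the 20 members of highest mean fold, the first 3 of each gene type, members at genes of 3 lists, the 5 genes with most members and the 3 peaks nearest each side of a limit; weaker members at list genes and of other types are given by name or number only. Genes with as many members as the last of the 5, further snRNA and other small RNA genes, and lncRNAs in start windows were added after their values were seen. The members and lists were chosen with earlier results of these data known. No test was made, as no groups of samples differ in a condition.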

Additional observations from a re-analysis of the deposited data

How the results depend on the processing

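The number of members stayed within 1.5 times 1264 with windows of 500 bp, 5 kb and 0 bp, without pseudogenes and in single replicates (1617 to 1784), and the number reproducible within 1.5 times 656 with those windows, without pseudogenes and at an IDR of 0.01. Without genes named only by a LOC number, 652 members and 333 reproducible members were left, since fewer genes count. The difference in median log2 fold, members minus other peaks, was 0.0086, and it changed sign under several settings: -0.0180 with 5 kb, -0.00625 with 0 bp, -0.0175 over reproducible peaks, -0.00339 with a −log10 q of at least 5 in both replicates and -0.00604 without the snRNA members, an alternative added after seeing the data; leaving out a replicate gave 0 to 0.0121. It is thus a difference without a settled direction. The share reproducible was 38.8% at an IDR of 0.01. The share near a gene end was 36.9% over reproducible members and 20.3% within 500 bp of an end. None of these changes was tested. No paired analysis was possible because the peak lists hold no input values and no test was made, although ChIP and input libraries share the numbers 1 and 2. With 2 libraries of 1 cell line, and copies of snRNA, tRNA and U3 genes that short reads cannot always tell apart, values of single copies are the least certain.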
